A study of Homo sapiens with 14 samples.

Results

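The integrins and laminins are the cell surface receptors and the matrix proteins through which an epithelial cell holds on to its basement membrane. They were examined here as 37 genes: 18 integrin alpha subunits, 8 integrin beta subunits and 11 laminin chains. A region was counted for a gene when it overlapped the gene span extended by 50 kb on either side. Regions were the peaks of 12 GATA3 ChIP-seq libraries merged wherever they overlapped by 1 bp or more, which gave 78999 regions. Of these, 382 lay in the window of at least 1 of the 37 genes, and each of the 37 genes had at least 1 region, against 88.4% of 20037 protein-coding genes.

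ChIP-seq, chromatin immunoprecipitation followed by sequencing, was done for GATA3 in MDA-MB-231, an established human triple-negative breast cancer cell line. There were 6 groups of 2 libraries: wildtype GATA3 (WT), the point mutants A442M and G444E, and the same 3 proteins with a FLAG tag at the C-terminal end (WT-FLAG, A442M-FLAG and G444E-FLAG). All cells were taken at day 3 and precipitated with an antibody against GATA3, tagged or not, and the design text says that the tag stabilises the protein whatever the mutation. The labels also name 2 empty-vector samples, which were not analysed here, so no list of empty-vector cells enters any comparison. Whether replicates were separate cultures is not stated, so the p-values measure only the spread between these libraries, which may be technical. Peak lists hold calls and a score per peak but no expression, so neither the identity of the line nor the level of any gene could be checked.

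GATA3 is a zinc-finger transcription factor that binds GATA-containing DNA and is best known in breast tissue for the luminal epithelial state. Integrins are alpha-beta pairs that span the membrane: some pairs bind laminins, some collagens, some the RGD sequence of fibronectin and related proteins, and some serve white blood cells. Laminins are cross-shaped trimers of 1 alpha, 1 beta and 1 gamma chain that form the sheet of the basement membrane, and in hemidesmosomes laminin is anchored to the cell by the integrin pair of ITGA6 and ITGB4.

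Few of these genes had a region at the start of transcription, though their share was not below that of all genes. RefSeq promoter entries (GRCh38.p14, the coordinates of hg38) were found for 26 of the 37 genes, as 33 entries, each running from 250 bases before to 50 bases after a start. A region called in 6 or more libraries overlapped such an entry in 3 of the 26 genes, ITGA2, ITGB6 and ITGA1, while 5.71% of 15843 genes with an entry had one. The share was thus higher at members, but it rests on 3 genes and was not tested. The merged region at ITGA2 was called in all 12 libraries, as one was for 1.7% of genes. It was 3643 bp long, so a library's peak need not lie on the entry itself. Where peaks had to cover 50% of the region, 5 libraries called it. A region of 4 libraries overlapped the promoter of ITGB5 and a region of 1 library that of LAMC1.

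The 250 bases before the start are shown for the 3 genes with such a region and for 2 genes without one, picked after their values were seen because they held searched motifs. They are written 5′ to 3′ on the gene's strand, with motif matches in capitals. ITGA2 lies on the plus strand (chr5:52989102-52989351), ITGB6 on the minus strand (chr2:160200273-160200522), ITGA1 on the plus strand (chr5:52787666-52787915), LAMA3 on the plus strand (chr18:23872770-23873019) and ITGA2B on the minus strand (chr17:44389650-44389899).
ITGA2: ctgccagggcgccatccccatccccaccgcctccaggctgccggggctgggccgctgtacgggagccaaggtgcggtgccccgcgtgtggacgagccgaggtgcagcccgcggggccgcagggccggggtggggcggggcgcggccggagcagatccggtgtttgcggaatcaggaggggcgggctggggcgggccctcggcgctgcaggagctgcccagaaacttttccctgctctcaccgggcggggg
ITGB6: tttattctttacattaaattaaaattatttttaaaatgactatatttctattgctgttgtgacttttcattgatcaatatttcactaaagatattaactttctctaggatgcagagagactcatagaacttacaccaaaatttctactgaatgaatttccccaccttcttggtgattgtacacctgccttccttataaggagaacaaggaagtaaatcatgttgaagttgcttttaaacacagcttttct
ITGA1: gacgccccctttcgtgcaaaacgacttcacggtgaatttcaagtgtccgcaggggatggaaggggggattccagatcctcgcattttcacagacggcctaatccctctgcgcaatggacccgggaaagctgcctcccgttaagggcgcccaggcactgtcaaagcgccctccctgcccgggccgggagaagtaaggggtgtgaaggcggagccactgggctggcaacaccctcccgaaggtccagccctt
LAMA3: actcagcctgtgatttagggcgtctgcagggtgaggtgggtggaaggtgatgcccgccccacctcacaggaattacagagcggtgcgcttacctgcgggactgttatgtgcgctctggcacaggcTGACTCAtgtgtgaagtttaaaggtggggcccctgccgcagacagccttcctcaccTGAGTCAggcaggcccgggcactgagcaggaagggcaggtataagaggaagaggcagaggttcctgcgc
ITGA2B: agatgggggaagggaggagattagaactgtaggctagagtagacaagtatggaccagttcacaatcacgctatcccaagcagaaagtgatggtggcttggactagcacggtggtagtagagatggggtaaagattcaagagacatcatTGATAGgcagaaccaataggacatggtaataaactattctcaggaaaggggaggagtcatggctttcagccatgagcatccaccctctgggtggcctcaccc

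For GATA factors the word AGATAA was searched on both strands, as were AGATAG with a different last base, TGATAA with a different first base and TGATAG with both changes. For AP-1 the searched word was TGANTCA, and no word of one kind contains a word of the other. None of the 3 promoters that carried a region held a word of either kind. A GATA word stood in 8 of the 33 member entries, of 7 genes, against 17.9% of 22183 promoters of the same length, and an AP-1 word in 2 entries, of LAMA3 and LAMB3, against 5.35%. ITGA2B, whose platelet integrin is a classic target of GATA1 in megakaryocytes, held TGATAG with its first base 102 bases before the start and had no region on its promoter in any library. The promoters with regions also differed in composition: 76.4% of the 250 bases were G or C at ITGA2, 62.0% at ITGA1 and 30% at ITGB6. A match or its absence describes these letters only, and the sequence of regions away from starts was not used here.

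The LAMA3 entry begins inside the gene, 183567 bases after its 5′ end, at an internal start. The nearest region before it (chr18:23871502-23872066) was called in 6 FLAG libraries and 2 untagged ones, 1 of A442M and 1 of G444E.

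Away from promoters, regions lay throughout the genes and around them. Of the 382 regions, 212 (55.5%) had their centre inside a gene span, and spans made up 51.4% of the summed windows. Strand was known for the genes of 307 regions: 184 were inside, 78 upstream and 45 downstream. Of the 307, 8 (2.61%) were centred within 1 kb of the 5′ end of the gene span and 47 (15.3%) within 10 kb. The median distance was 40714 bp, and the shares that window length alone would give were not counted. The nearest gene end belonged to one of the 37 genes for 283 of the 382 regions, so 99 lay closer to another gene, and 16 were shared by the windows of 2 or more members.

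Integrin and laminin windows held more GATA3 regions per length than those of protein-coding genes as a whole, a difference that was described and not tested. Their windows held 5.23 regions per 100 kb, against 3.52 over all genes, and 0.880 regions per 100 kb that were called in all 12 libraries, against 0.467. The medians over genes were 5.05 and 3.06 regions per 100 kb. The genes are also long, with a median of 79.4 kb against 24.1 kb, which is why densities and not counts are compared. In all 12 libraries, 61 of the 382 regions (16.0%) were called, against 13.8% of all regions. Such a region lay in the window of 23 of the 37 genes, against 40.6% of all genes, whose windows are shorter.

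The shared regions were not of higher rank than elsewhere. Scores were compared as percentiles within each library's own list, where 100 is the highest scoring peak. The median percentile of the 61 shared regions was 75.0, against 79.2 for all regions called in every library. Regions of a single library made up 68 of the 382 (17.8%), against 23.5% of all regions.

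Density differed between the kinds of gene, as the chart of regions per 100 kb by role shows. The 4 collagen-binding alpha subunits had 8.06 regions per 100 kb, the 5 beta subunits outside the leukocyte and hemidesmosome groups 7.95, the 4 laminin-binding integrins 7.39, and the laminin gamma and beta chains 7.12 and 7.10. The 4 RGD-binding alpha subunits and the 5 laminin alpha chains both had 3.93, close to the 3.52 of all genes. The 7 leukocyte integrins had 2.62 and the pair ITGA4 and ITGA9 1.84, below that of all genes. For regions of all 12 libraries the laminin beta chains were the densest, with 2.01 per 100 kb, and the RGD-binding subunits the sparsest, with 0.135.

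**Figure D1:**
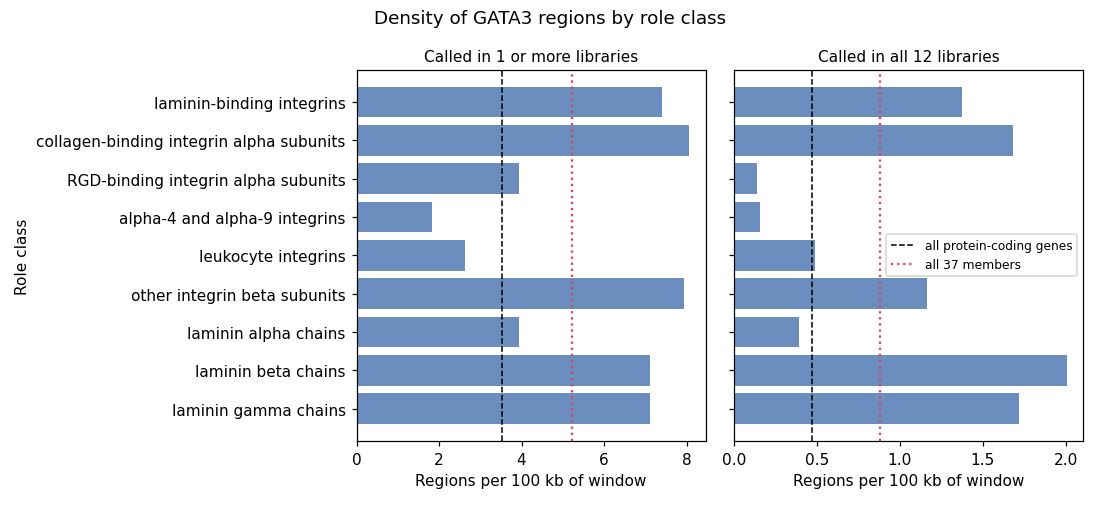
Regions per 100 kb of gene window for 9 role classes of integrin and laminin genes, called in 1 or more libraries (left) and in all 12 (right). The dashed line marks all protein-coding genes (3.52 and 0.467) and the dotted line all 37 members (5.23 and 0.880); leukocyte and alpha-4 and alpha-9 integrins lie below the dashed line on the left.

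Among receptors for laminin, ITGA6 had 11.2 regions per 100 kb, ITGB4 8.80, ITGB1 7.60, ITGA3 6.70 and ITGA7 1.52. ITGA6, the alpha subunit that pairs with ITGB4 in hemidesmosomes, had 20 regions, 6 of them called in every library. With a score of at least 10 there were 3 such regions, and none where peaks had to cover 50% of the region. It had 11 and 8 regions in the WT libraries, 13 and 10 in A442M, 11 and 10 in G444E, 15 and 14 in WT-FLAG, 14 and 15 in A442M-FLAG, and 14 and 13 in G444E-FLAG. The tagged libraries were the higher ones, and the groups met at 13 regions. Of the 6 shared regions, 4 lay inside the gene, between 3678 and 31530 bp from its 5′ end, and the highest had a median percentile of 86.4 but lay 46708 bp beyond the far end, closer to PDK1.

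ITGB4, its beta partner, had 12 regions in its window but only 1 nearest to its own ends. ITGB4 counts were 3 and 2 in WT, 5 and 5 in A442M, 4 and 4 in G444E, 8 and 7 in WT-FLAG, 8 and 7 in A442M-FLAG, and 8 and 5 in G444E-FLAG. Tagged libraries had between 5 and 8 and untagged ones between 2 and 5, so the groups met at 5. ITGA3, the alpha subunit that joins ITGB1 to bind laminin, had 9 regions with 1 shared by every library, at a median percentile of 26.1. ITGA7, the muscle laminin receptor, had 2 regions, and no library called more than 1.

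The neighbouring genes ITGA1 and ITGA2, both collagen-binding alpha subunits on chromosome 5, held 8 shared regions between them, 3 of which lay in both windows. ITGA2 had the highest density of all 37 genes, with 26 regions or 12.7 per 100 kb, of which 7 were called in every library. Its library counts were 12 and 10 in WT, 16 and 13 in A442M, 14 and 15 in G444E, 17 and 18 in WT-FLAG, 17 and 13 in A442M-FLAG, and 17 and 14 in G444E-FLAG. The WT pair was lowest, and tagged and untagged libraries overlapped. Gaps between genotypes are described per gene here and below. Their share over all genes was counted only for all libraries of a mutant against all of WT. Lists also differed in length, with group means from 27069 peaks in untagged WT to 47343.5 in A442M-FLAG.

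The ITGA2 promoter region (chr5:52987479-52991121), which spans the sequence shown above, ranked between percentile 89.9 and 97.9 in the 12 libraries. The untagged WT pair ranked highest there, at 97.5 and 97.9. A second ITGA2 region (chr5:53089296-53090264), inside the gene and 4999 bp from its far end, ranked between 93.0 and 99.1. A further region (chr5:52963527-52964789), 4949 bp beyond the far end of ITGA1 and in both windows, ranked at 80.3 and 73.6 in untagged WT, at 90.9 and 90.7 in untagged A442M, and at 95.9 or above in the 8 other libraries. The untagged WT values lay below those of every other library for that region. Here and below, the share of all shared regions at which that pair ranked lowest was not counted.

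The ITGA1 promoter region (chr5:52787363-52788447) went the other way. It was called in 5 of 6 untagged libraries, at percentiles of 57.9 and 54.8 in WT, 79.5 and 63.2 in A442M and 31.7 in 1 G444E library. Of the tagged libraries only the WT-FLAG pair called it, at 37.4 and 5.98. The difference in calls did not pass Fisher's exact test even before adjustment (p = 0.242). Over its whole window ITGA1 was called 8 and 9 times in WT, 13 and 9 in A442M, 8 and 8 in G444E, 10 and 9 in WT-FLAG, 12 and 9 in A442M-FLAG, and 8 and 9 in G444E-FLAG. Both untagged A442M libraries lay above both of G444E, and the other groups of the same tag state overlapped or met at 9.

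ITGA11, the collagen receptor of fibroblasts, had 19 regions with 3 shared. Its counts were 7 and 7 in WT, 10 and 9 in A442M, 8 and 6 in G444E, 12 and 7 in WT-FLAG, 12 and 9 in A442M-FLAG, and 9 and 7 in G444E-FLAG. Without the tag both A442M libraries lay above both libraries of WT and of G444E, while the tagged groups overlapped or met. ITGA10, the collagen receptor of cartilage, had 6 regions, none of them shared.

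The RGD-binding alpha subunits had 1 shared region in all, at ITGAV, and it lay 44064 bp upstream. ITGAV, the alpha subunit common to the receptors of vitronectin and latent TGF-beta, had 18 regions and 9.43 per 100 kb. It was called 3 and 5 times in WT, 6 and 7 in A442M, 3 and 6 in G444E, 6 and 11 in WT-FLAG, 12 and 13 in A442M-FLAG, and 5 and 6 in G444E-FLAG. The 2 A442M-FLAG libraries stood highest, and the untagged WT libraries lay below those of untagged A442M.

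A region inside ITGAV (chr2:186602083-186603058), 12514 bp from the 5′ end, was called in all 10 libraries other than untagged WT. Its percentile lay between 65.5 and 79.9 in the untagged mutants and between 82.0 and 93.7 in the tagged libraries. ITGA5, the fibronectin receptor subunit, had 5 regions, ITGA2B 4 and ITGA8 2. Both ITGA8 regions were called only in untagged WT or A442M libraries: the one at chr10:15518206-15518652 ranked at 85.6 and 73.0 in WT and at 47.9 in the first A442M library.

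Of the 7 leukocyte integrins, ITGA4 and ITGA9, 3 genes had more regions per 100 kb than the 3.52 of all genes: ITGB2 with 5.60, ITGA4 with 3.85 and ITGAE with 3.75. ITGB2, the common beta subunit of white blood cell integrins, had 8 regions, 4 of them shared. The strongest of them (chr21:44869867-44871060) ranked between 95.2 and 99.3, but it lay 15490 bp outside the gene and only 3227 bp from an end of PTTG1IP. ITGB2 was called 5 and 4 times in WT, 5 and 4 in A442M, 7 and 4 in G444E, 6 and 4 in WT-FLAG, 7 and 5 in A442M-FLAG, and 7 and 4 in G444E-FLAG, and no group stood apart. ITGAE had 7 regions with 1 shared, ITGA9 5 with 1 shared, ITGA4 7, ITGAL 4, ITGB7 3, ITGAD and ITGAM 2 each and ITGAX 1, none of these last 6 shared. The region of ITGAX was called in a single library.

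**Figure D2:**
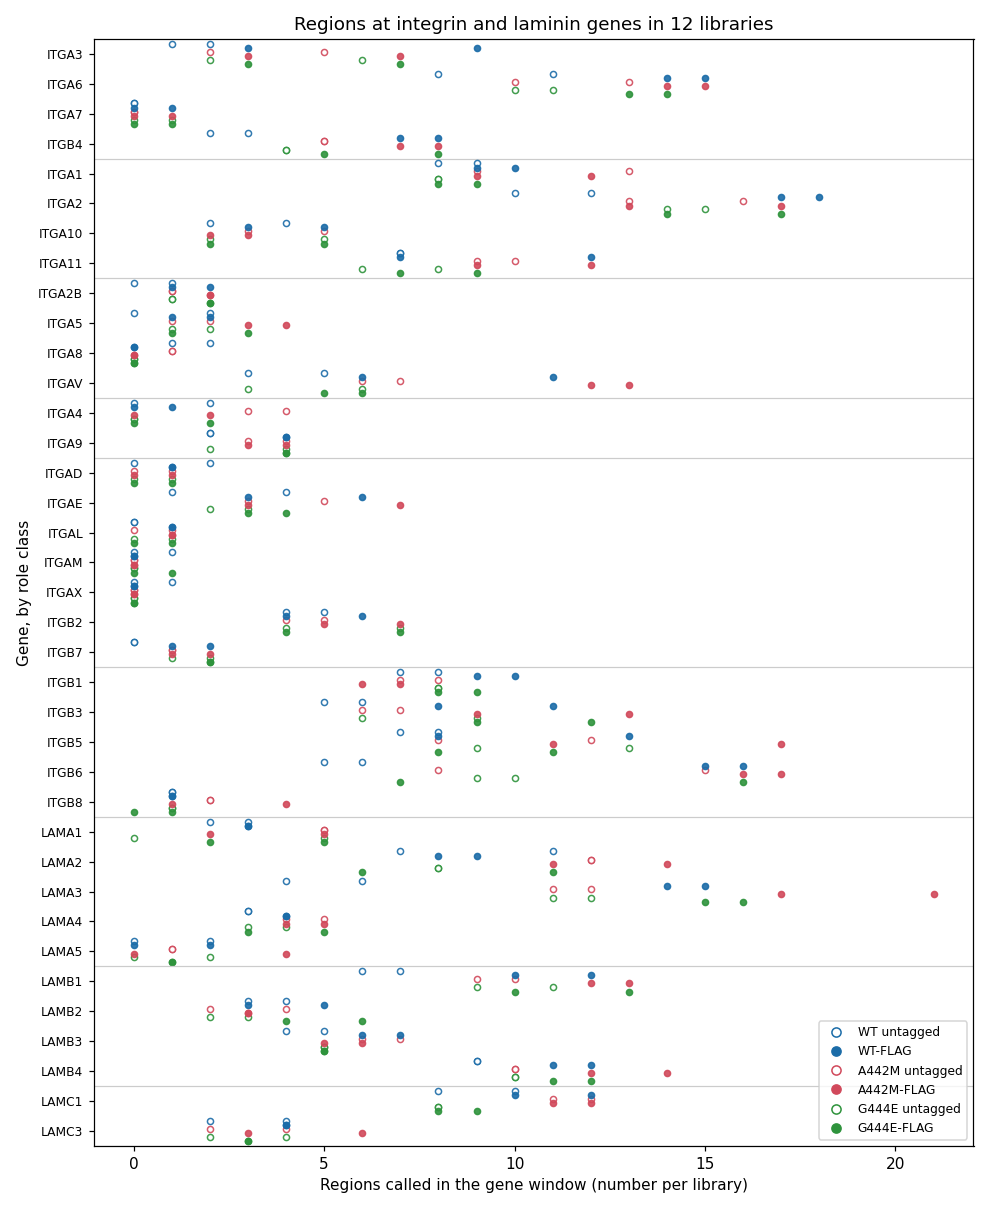
Number of regions called in the window of each gene, 1 point per library, with genes ordered by role and libraries of 1 group on 1 line (points of equal value coincide). Open circles are untagged and filled circles FLAG libraries; LAMA3 (4 to 12 untagged, 14 to 21 FLAG) and LAMB4 (9 to 10 and 11 to 14) are the 2 genes whose open and filled circles do not overlap.

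The remaining beta subunits carried the highest scoring shared region of the whole set. It lay inside ITGB3 (chr17:47300701-47301649), the beta subunit of the platelet fibrinogen receptor and of a vitronectin receptor, 12568 bp from the nearer gene end. Its percentile was between 99.88 and 99.99 in the 12 libraries, so that it was among the top peaks of every list and did not separate the groups.

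ITGB1, the beta subunit shared by the most alpha partners, had 12 regions, 4 of them in every library. Its strongest region (chr10:32929158-32930341), inside the gene and 28481 bp from the 5′ end, ranked at 79.8 and 57.5 in untagged WT. In the other 10 libraries the percentile was between 96.2 and 99.6, so the untagged WT pair stood apart there as well. The counts over its window were 7 and 8 in WT, 8 and 7 in A442M, 8 and 8 in G444E, 10 and 9 in WT-FLAG, 7 and 6 in A442M-FLAG, and 9 and 8 in G444E-FLAG. The untagged groups overlapped or met, and both A442M-FLAG libraries lay below those of WT-FLAG and G444E-FLAG.

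ITGB6, the beta subunit of the epithelial receptor that activates TGF-beta, had 22 regions and 11 per 100 kb. ITGB6 counts were 6 and 5 in WT, 15 and 8 in A442M, 10 and 9 in G444E, 16 and 15 in WT-FLAG, 17 and 16 in A442M-FLAG, and 16 and 7 in G444E-FLAG. The second G444E-FLAG library, with 7, was among the low ones, and the first A442M library, with 15, reached the second of WT-FLAG. The tagged and untagged groups thus overlapped. The region reaching into the ITGB6 promoter (chr2:160200340-160203054) was absent from the first WT library, ranked at 56.7 in the second, at 80.2 and 91.5 in untagged A442M and at 94.2 or above in the other 8. A further 13 regions lay upstream of the gene, the farthest at 41892 bp, as the maps of 4 genes show.

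ITGB5, which pairs with ITGAV, had 20 regions with 3 shared, all 3 inside the gene. It was called 8 and 7 times in WT, 12 and 8 in A442M, 13 and 9 in G444E, 13 and 8 in WT-FLAG, 17 and 11 in A442M-FLAG, and 11 and 8 in G444E-FLAG. In each group the first library, which had the longer peak list, had more regions. Both G444E libraries lay above both WT libraries, and the other groups of the same tag state overlapped or met. ITGB8, whose integrin with ITGAV activates TGF-beta, had 4 regions with none shared. ITGB3 had 17 regions, or 10.6 per 100 kb, next after ITGA2, ITGA6 and ITGB6 in density.

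**Figure D3:**
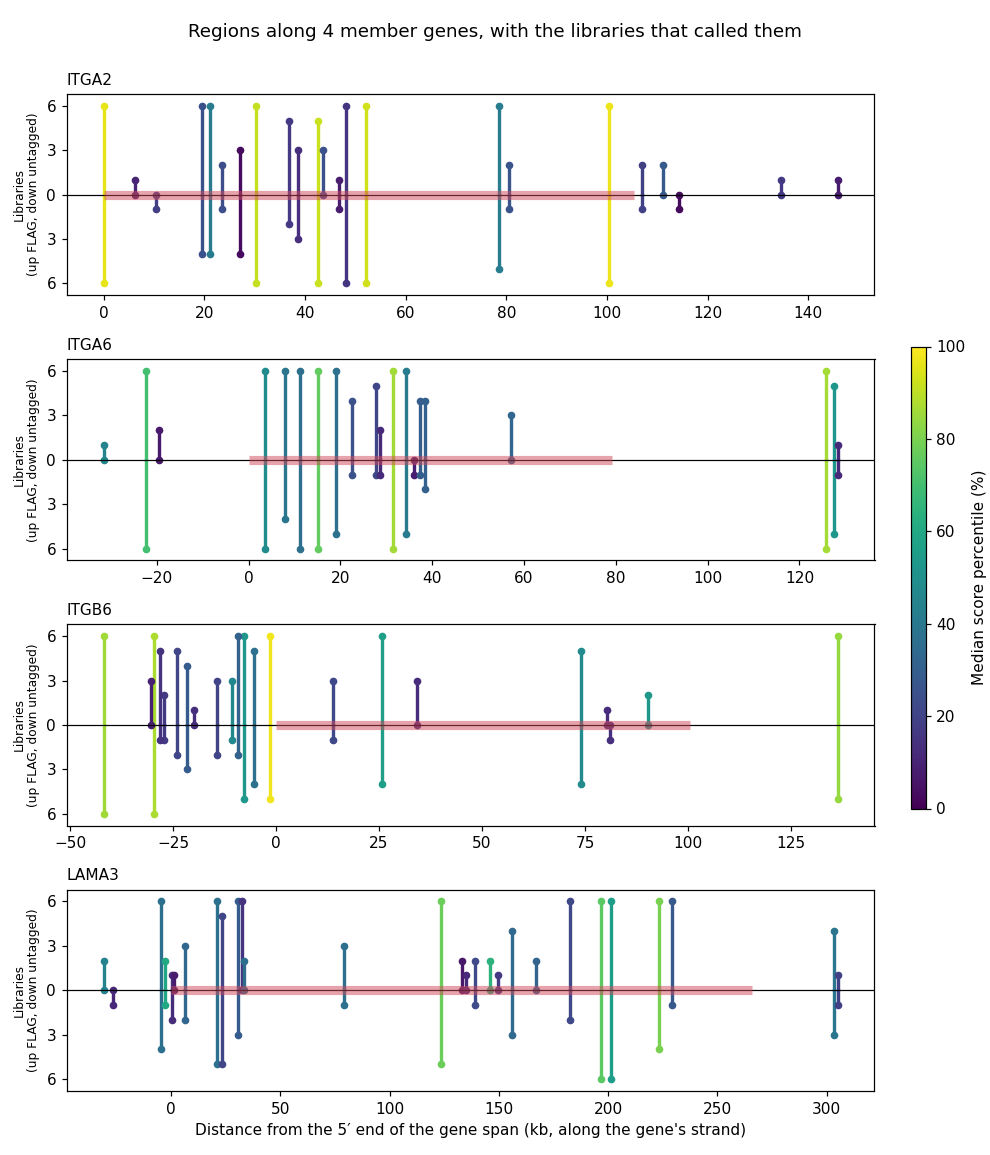
Regions along ITGA2, ITGA6, ITGB6 and LAMA3, by distance in kb from the 5′ end of the gene span, with the gene in pink. Bars reach up to the number of FLAG libraries and down to the number of untagged libraries that called the region, and colour gives the median score percentile; ITGA2 has a yellow bar of 12 libraries at its start and LAMA3 a bar of 6 FLAG and 0 untagged libraries near 33 kb.

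Among laminin alpha chains, LAMA3 had the most regions of any member and few that all libraries shared. LAMA3, the alpha chain of the hemidesmosomal laminin, had 28 regions, of which 2 were called in every library. It was called 6 and 4 times in WT, 11 and 12 in A442M, 11 and 12 in G444E, 15 and 14 in WT-FLAG, 21 and 17 in A442M-FLAG, and 15 and 16 in G444E-FLAG. Every tagged library was higher than every untagged one, and the WT pair was lowest.

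LAMA2, the muscle laminin alpha chain, had 20 regions spread over the longest window, 733 kb, so that its density was 2.73 per 100 kb. Its counts were 11 and 7 in WT, 12 and 12 in A442M, 8 and 8 in G444E, 9 and 8 in WT-FLAG, 14 and 11 in A442M-FLAG, and 11 and 6 in G444E-FLAG. A442M libraries had 11 to 14 and the others 6 to 11. The highest ranked of its 4 shared regions (chr6:129498129-129499507) lay between percentile 80.7 and 96.5. LAMA4 had 8 regions with 1 shared, LAMA1 9 and LAMA5 5 with none shared.

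The laminin beta chains had 38 regions, 10 of them shared by every library, and each of the 4 genes had at least 1. LAMB1 and LAMB4, neighbours on chromosome 7, held most: LAMB4 had 16 regions with 6 shared and LAMB1 15 with 4, and 3 of the shared ones lay in both windows. LAMB1, a chain of most basement membrane laminins, was called 7 and 6 times in WT, 10 and 9 in A442M, 11 and 9 in G444E, 12 and 10 in WT-FLAG, 13 and 12 in A442M-FLAG, and 13 and 10 in G444E-FLAG. LAMB4 was called 9 and 9 times in WT, 10 and 10 in A442M, 10 and 10 in G444E, 11 and 12 in WT-FLAG, 14 and 12 in A442M-FLAG, and 12 and 11 in G444E-FLAG. LAMB4 libraries with the tag all exceeded those without it, whereas LAMB1 libraries overlapped.

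The strongest LAMB1 region (chr7:107948549-107950133), inside the gene, ranked at 94.2 and 92.8 in untagged WT and between 96.5 and 99.0 elsewhere. A LAMB4 region (chr7:108090757-108092122), inside the gene and 38922 bp from its 5′ end, ranked at 71.0 and 72.8 in untagged WT, and between 88.0 and 98.4 elsewhere. Another LAMB4 region (chr7:108020159-108021248), also in the LAMB1 window, ranked at 89.2 and 92.1 in untagged WT and between 93.7 and 97.8 elsewhere. In all 3 the untagged WT pair held the lowest values, and the share of all shared regions with that order was not counted. LAMB3, the beta chain of the hemidesmosomal laminin, had 8 regions with 2 shared, and LAMB2 7 with 1 shared.

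Of the gamma chains, LAMC1, the one in most laminins, had 22 regions with 5 shared. LAMC1 was called 10 and 8 times in WT, 12 and 11 in A442M, 8 and 8 in G444E, 12 and 10 in WT-FLAG, 11 and 12 in A442M-FLAG, and 9 and 8 in G444E-FLAG. Tagged and untagged libraries overlapped, while the 4 A442M libraries, with 11 to 12, lay above the 4 of G444E, with 8 to 9. The share of all genes with such a gap was not counted. A442M lists were also longer on average, at 37889 against 29063 peaks without the tag and 47343.5 against 35207.5 with it. The highest shared region of LAMC1 (chr1:182996762-182997403), 26338 bp upstream, had a median percentile of 91.9. LAMC3 had 7 regions with 2 shared, both outside the gene and nearest to AIF1L.

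**Figure D4:**
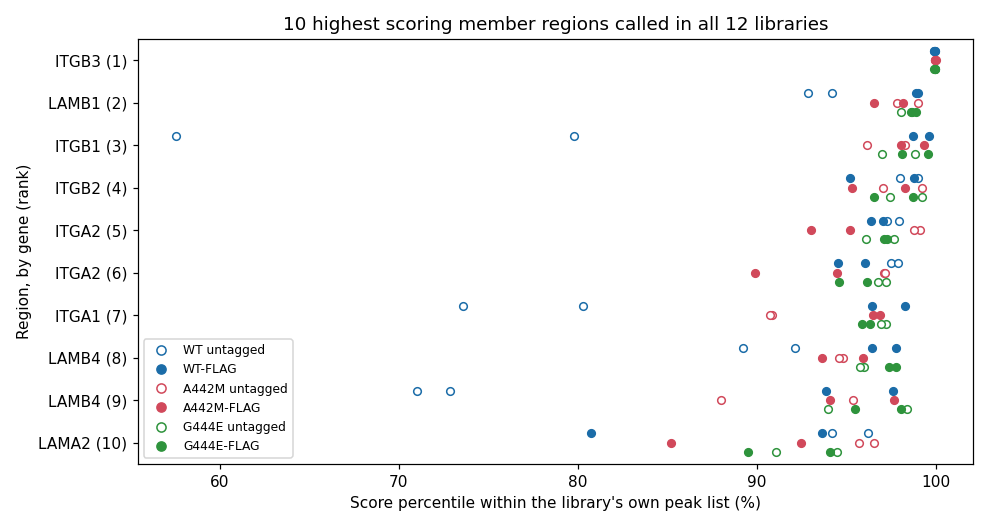
Score percentile in each library of the 10 shared integrin and laminin regions with the highest medians, ranked by median and labelled by closest member gene. Open circles are untagged and filled circles FLAG libraries. The untagged WT pair trails at ITGB1 (79.8 and 57.5), ITGA1 (80.3 and 73.6) and 1 LAMB4 region (71.0 and 72.8). How often it does so over all shared regions was not counted. At the ITGA2 promoter region the same pair is highest (97.5 and 97.9), and the ITGB3 region is at 99.88 or above throughout.

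The libraries themselves set the frame for every comparison between groups. Their lists ranged in length from 25248 to 51694 peaks, on an unknown number of reads. Between 124 and 257 of the 382 regions were called per library, and this was 0.491% to 0.595% of all regions called. The share was 0.556% to 0.595% in the 4 libraries of G444E, tagged or not, and 0.491% to 0.550% in the 8 others, a difference that was not tested. By group, 134.5 ± 14.8 regions were called in WT, 190 ± 19.8 in A442M, 164 ± 22.6 in G444E, 211 ± 28.3 in WT-FLAG, 232.5 ± 34.6 in A442M-FLAG and 193.5 ± 33.2 in G444E-FLAG (SD, n = 2 each). Peaks on unplaced contigs numbered 57 to 110 in the untagged WT and A442M libraries and 16 to 25 in the 8 others. These 4 libraries stand apart in a way that cannot be told apart from their groups, and its part in the results below was not tested.

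The first comparison asked what the tag changed. At members, 29 of the 37 genes had a higher mean number of regions with the tag, 4 a lower one and 4 an equal one, where 76.7% of all genes had a higher one. The median difference was 0.83 regions per library for members and 0.67 for all genes. The exact permutation test with tag labels permuted within genotype, two-sided and Benjamini-Hochberg adjusted over 17721 genes, called no gene (lowest adjusted p = 0.174, 0% called), and 3497 genes had an unadjusted p under 0.05. Members with such an unadjusted p were 8, all higher with the tag: ITGA6, ITGB4, ITGA2B, ITGAV, ITGB3, LAMA3, LAMB1 and LAMB4. The background share of genes higher with the tag at that level was 19.1%.

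LAMA3 and LAMB4 were the 2 members whose groups did not overlap, where 2.01% of all genes had every tagged library above every untagged one. No member had every tagged library below, where 0.0226% of all genes did. LAMA3 had a lowest, median and highest count of 14, 15.5 and 21 with the tag and of 4, 11 and 12 without it, a mean difference of 7 regions. LAMB4 had 11, 12 and 14 with the tag and 9, 10 and 10 without it, a mean difference of 2.33. Both had the smallest p that 216 arrangements allow (exact permutation test, p = 0.00926, adjusted p = 0.174). With lists cut to equal length, 25248 peaks each, the differences were 3 regions at LAMA3 and 1 at LAMB4, and neither gene's groups stayed apart. With a score of at least 10, ITGB4 was the 1 member without overlap.

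No single region passed the test of the tag. Fisher's exact test of calls in 6 tagged against 6 untagged libraries called none of 11777 testable regions after Benjamini-Hochberg adjustment (0% called, lowest adjusted p = 0.104). Of 60 testable member regions, 4 were called more often with the tag and 2 less often at an unadjusted p under 0.05, where the shares over all testable regions were 11.3% and 1.63%. A LAMA3 region (chr18:23721707-23722337), inside the gene and 32569 bp from its 5′ end, was called in all 6 tagged and in no untagged library (Fisher's exact test, p = 0.00216, adjusted p = 0.104). Its percentiles of 1.25 to 31.6 place it in the lower part of each list, and 0.291% of all regions had this pattern. With a score of at least 10 it was called in 2 libraries, and with lists of equal length in none.

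A second LAMA3 region (chr18:23918270-23918730), a region inside ITGB3 (chr17:47255453-47256074) and one in the ITGB4 window nearest to SAP30BP (chr17:75693578-75694092) were each called in 6 tagged libraries and 1 untagged one. With a score of at least 10 they were called in 5, 6 and 3 libraries, and with equal lists in 4, 6 and 1. In the opposite direction, a region 4663 bp upstream of ITGA1 (chr5:52782902-52783604) was called in all 6 untagged libraries and 1 tagged one. A region inside LAMA2 (chr6:129055870-129056145) was called in 5 untagged libraries and no tagged one, at percentiles of 15 to 48.3. With a score of at least 10 the ITGA1 and LAMA2 regions were called in 4 libraries each, and with equal lists in 5 each.

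Within genotypes, one-sided regions were counted for each pair of tagged and untagged groups. A region counted as one-sided when both libraries of a group called it and no library of the other did, and 2 against 2 libraries cannot go below p = 0.333 in an exact test, so these are counts beside their background. WT-FLAG called 44 member regions that WT lacked, 15.5% of the 283 called in any of the 4 libraries, against a background of 16.8%. WT called 5 that WT-FLAG lacked (1.77%, background 4.34%). A442M-FLAG had 33 that A442M lacked (9.76%, background 12.5%) and the reverse held for 15 (4.44%, background 4.71%). With lists of equal length these 2 counts were 11 and 16 (5.73% and 8.33%), so the direction turned. The backgrounds there were 10.4% and 9.25%, which did not turn. G444E-FLAG had 4 that G444E lacked (1.5%, background 3.57%) and the reverse held for 3 (1.12%, background 0.7%). With equal lists these counts turned to 1 (0.476%, background 1.81%) and 4 (1.9%, background 1.63%). Whether these genotypes differ in the effect of the tag was not tested.

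The WT-FLAG regions absent from WT were led by the ITGAV region described above, by one 4183 bp beyond ITGB7 (chr12:53186720-53187561) and by one 18460 bp upstream of ITGB5 whose nearest gene end is MUC13 (chr3:124919647-124920109). All 3 were called in the 10 libraries other than untagged WT, so they were not limited to tagged protein. There were 13 such regions among the 382, a share of 3.40%, where that over all regions was 2.61%. Among those lost with the tag in A442M, a region in the ITGA10 window nearest to LIX1L (chr1:145950567-145950962) ranked at 93.5 and 88.7 in A442M and was called in neither A442M-FLAG library. It was called in all 6 untagged libraries, in 1 WT-FLAG and in 1 G444E-FLAG library. A region inside ITGA11 (chr15:68384447-68384804) was called in both WT and both A442M libraries and in neither tagged counterpart.

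The second comparison set the mutants against wildtype. Without the tag, A442M called 25 member regions that WT lacked (9.65% of 259, background 11%), and WT called 2 that A442M lacked (0.772%, background 1.08%). G444E called 24 that WT lacked (9.96% of 241, background 8.72%), and WT called 6 that G444E lacked (2.49%, background 6.27%). A442M called 11 that G444E lacked (4.15% of 265, background 8.28%) and the reverse held for 3 (1.13%, background 1.38%). With equal lists these counts turned to 4 (2.01%, background 4.99%) and 12 (6.03%, background 3.72%). The untagged WT and A442M libraries are the ones with more contig peaks.

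With the tag, G444E-FLAG called no member region that WT-FLAG lacked (0 of 289, background 0.659%), and WT-FLAG called 7 that G444E-FLAG lacked (2.42%, background 3.11%). With equal lists these counts turned to 5 (2.46%, background 1.3%) and 4 (1.97%, background 1.74%). A442M-FLAG called 23 that WT-FLAG lacked (6.93% of 332, background 7.15%) against 6 in reverse (1.81%, background 1.89%). With equal lists these were 7 (3.68%, background 5.59%) and 6 (3.16%, background 4.12%). A442M-FLAG called 25 that G444E-FLAG lacked (7.42% of 337, background 11%) against 4 in reverse (1.19%, background 1.38%). Equal lists gave 8 and 8 (3.83% each, backgrounds 7.41% and 4.78%). Comparisons that share a group are not independent of each other.

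**Figure D5:**
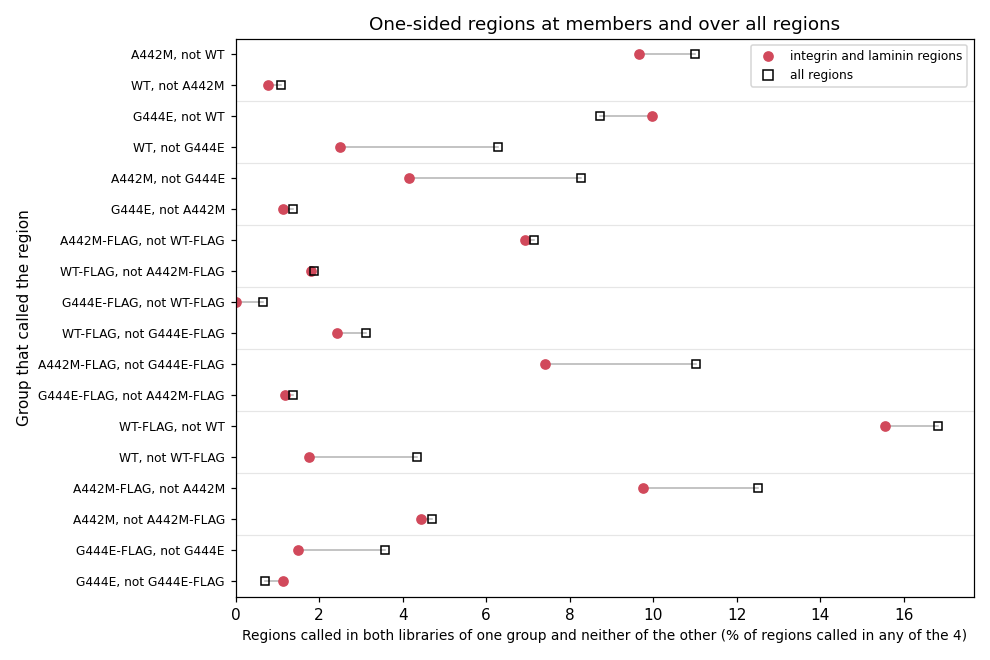
One-sided regions, as percent of regions called in any of the 4 libraries, for both sides of 9 pairs of groups. Filled circles are integrin and laminin regions and open squares all regions; the widest gaps are at A442M, not G444E (4.15% and 8.28%) and WT, not G444E (2.49% and 6.27%).

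No region passed a genotype test, so the regions called unequally are described by their calls. A region inside LAMA2 (chr6:129398084-129398539), 515173 bp from the 5′ end, was called in both libraries of A442M, G444E and A442M-FLAG, in 1 of G444E-FLAG and in no WT or WT-FLAG library. Its percentiles were highest in A442M-FLAG, 70.6 and 74.2, and between 25.8 and 38.6 in the other 5. It was 1 of 2 member regions of 123 testable that were called more often in mutants at an unadjusted p under 0.05 (Fisher's exact test, p = 0.0101), the other being inside ITGA1 (chr5:52915236-52915671). None was called more often in WT, and the shares over all 26654 testable regions were 0.206% and 0.105%. No region passed adjustment (0% called).

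A single member region was called in all 4 A442M libraries, tagged or not, and in no other. It lay inside LAMA2 (chr6:129357582-129358049) and was called at percentiles of 31.1 and 30.6 in A442M and of 40.7 and 40.1 in A442M-FLAG, and in no other library (Fisher's exact test, p = 0.00202, adjusted p = 0.592). Over all regions 0.115% had that pattern. With lists of equal length only 1 library called it. With a LAMA3 region 2754 bp upstream of the gene (chr18:23686536-23686862), it made up the 2 member regions higher in A442M at an unadjusted p under 0.05, against 2.87% of all testable regions, and none was lower, against 0.0525%. The LAMA3 region was called in both A442M-FLAG libraries and 1 of A442M.

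The A442M-FLAG pair in turn lacked a region inside LAMA4 (chr6:112216519-112217629), a laminin alpha chain of blood vessels. It was called in all 10 libraries other than A442M-FLAG, at 74.4 and 67.6 in WT and 50.9 and 48.7 in A442M. The lower percentile of the pair was 40.3 in WT-FLAG and 9.67 in G444E-FLAG. Both untagged A442M libraries called the region, so only the tagged pair lacked it. With a score of at least 10 it was called in 7 libraries, with equal lists in 8 and with 50% cover in 4. The share of all regions missing only from A442M-FLAG was not counted.

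Of the member regions called in fewer G444E libraries, one lay 36370 bp upstream of LAMB3, nearest to HSD11B1 (chr1:209688608-209688983), and was called in every library of WT and A442M, tagged or not, at percentiles from 55.1 to 83.5, in 1 of 2 G444E-FLAG libraries and in neither G444E library. The other lay in the ITGAV window nearest to FAM171B (chr2:186697626-186698117) and was called in 7 libraries of WT and A442M and in none of the 4 of G444E (Fisher's exact test, p = 0.0101, adjusted p = 0.984). They were the 2 member regions lower in G444E at an unadjusted p under 0.05, against 0.675% of all testable regions, and none was higher, against 0.109%.

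Further regions were called in both libraries of 1 group and neither of another. At ITGB5, a region inside the gene (chr3:124818562-124819061) was called in the 10 libraries other than untagged WT, one at 38094 bp from the 5′ end (chr3:124863006-124863642) in both A442M-FLAG libraries and 1 of G444E-FLAG, and one at 69436 bp (chr3:124831782-124832183) in both A442M-FLAG libraries only. A region 48217 bp beyond its far end (chr3:124713494-124713968), nearest to KALRN, was called in both G444E and both A442M libraries, in the first of WT-FLAG and A442M-FLAG, and in neither of G444E-FLAG.

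At ITGB3, a region 1941 bp outside the gene (chr17:47315366-47316003) was called in G444E and all tagged libraries, 8 in all, and in no untagged WT or A442M library. Another inside the gene (chr17:47279174-47279577) was called in both libraries of G444E and G444E-FLAG and in the first of WT-FLAG and A442M-FLAG. All 4 untagged WT and A442M libraries, those with more contig peaks, lacked both regions, and the part of contig peaks in this was not tested. A further one (chr17:47267369-47267746) was called in both WT-FLAG and both A442M libraries, in 1 of WT and 1 of G444E-FLAG, and in neither A442M-FLAG library.

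At LAMA2, a region inside the gene (chr6:129370333-129370732) was also missing from untagged WT and A442M and called in the 8 other libraries. At LAMC1, a region 29381 bp upstream (chr1:182993770-182994308) was missing from untagged WT only. At ITGA1, a region inside the gene (chr5:52876355-52876774) was called in both WT-FLAG and both A442M-FLAG libraries, in 1 of A442M, and in no library of WT, G444E or G444E-FLAG. At ITGA3, a region inside the gene (chr17:50072804-50073320) was called in WT-FLAG and A442M-FLAG only, both libraries of each.

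Regions that WT called and A442M lacked without the tag were at LAMB2, 719 bp upstream (chr3:49133578-49133961), and at ITGB6, 14405 bp upstream (chr2:160214467-160214887). The LAMB2 region was nevertheless called in both A442M-FLAG libraries. At ITGA4, a region 7230 bp beyond the gene (chr2:181545964-181546376) was called in both A442M libraries and in neither of G444E. In the tag comparison of G444E, 2 regions inside ITGA2 and ITGA6 (chr5:53008487-53009246 and chr2:172454897-172455464) were called in both tagged and neither untagged library. The reverse held for a region inside ITGA2 (chr5:53016089-53016638) and one 4960 bp upstream of LAMB3 (chr1:209657164-209657606). Both A442M-FLAG libraries lacked a region inside LAMB3 (chr1:209649366-209649939) that both WT-FLAG and both G444E-FLAG libraries called, and one inside ITGA2 (chr5:53027667-53028278) that both G444E-FLAG libraries called. In these 6 cases the lower percentile in the pair that called the region was 24.1 or less.

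Counted per gene, A442M had more regions than WT at most members, as at most protein-coding genes, and G444E did not. The mean number was higher in A442M at 29 genes, lower at 7 and equal at 1, where 71.1% of all genes were higher, and the median difference was 1 region for members and 0.5 for all genes. In G444E it was higher at 16 genes, lower at 14 and equal at 7, where 39.7% of all genes were higher, with a median difference of 0 for both. With 36 arrangements the exact permutation test cannot go below p = 0.0556, which ITGAV, LAMA2 and LAMA3 reached in A442M (adjusted p = 0.787). The share of all genes that reached it was not counted, and A442M lists were longer on average than WT lists in both tag states. At each of the 3 genes A442M was higher on average, by 3.25, 3.5 and 5.5 regions. No member had groups that did not overlap in either contrast, where 0.903% and 0.0116% of all genes had every mutant library above every WT library. None had every mutant library below either, where 0% and 0.494% of all genes did. Neither contrast called a gene after adjustment (0% called).

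The genes that work with integrins and laminins were read out in the same way. Of 19 integrin adaptors and adhesion kinases, 18 had a region, 13 had one in every library, and their windows held 5.30 regions per 100 kb. PTK2, the focal adhesion kinase, had 32 regions with 7 shared, PXN, which encodes paxillin, 21 with 5, and TLN2 and LIMS1, which encode a talin and a PINCH adaptor, 32 and 16 with 4 each. With the tag 15 of the 19 had a higher mean, where 76.7% of all genes did, and 2 a lower one, with a median difference of 1.83 regions against 0.67 over all genes. Tagged and untagged libraries did not overlap for 3 of the 19, TLN1, VCL and FERMT2, which encode talin, vinculin and kindlin, where 2.01% of all genes had every tagged library higher.

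VCL had 10, 13, 15, 12, 14 and 10 regions in the tagged libraries and 3, 2, 7, 8, 9 and 8 in the untagged ones, each in the order WT, A442M and G444E. Every tagged library exceeded every untagged one, and the untagged WT pair was lowest, as at LAMA3. The adjusted p was 0.174 for it as for the other 2 genes (exact permutation test).

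Of 10 hemidesmosome and basement membrane partners, all had a region and 6 a shared one, at 6.89 regions per 100 kb. DST, which encodes the hemidesmosomal plakin, had 56 regions with 8 shared, the nidogen genes NID1 and NID2 had 12 with 5 and 15 with 4, and PLEC, which encodes plectin, 11 with 2. All 10 had a higher mean with the tag, where 76.7% of all genes did, none without overlap. Of 17 other integrin ligands, all had a region, 9 had a shared one, and the density was 5.25 per 100 kb. EDIL3, a ligand of ITGAV integrins, had 36 regions with 6 shared, and LTBP1, CCN1 and VCAM1 had 17, 15 and 9 with 3 each. Among these ligands 13 had a higher mean with the tag and 2 a lower one, where 76.7% of all genes had a higher one. In A442M against WT, the groups did not overlap for POSTN, which encodes periostin, and LTBP1, a latent TGF-beta binding protein, 2 of the 17, where 0.903% of all genes had every A442M library higher. No gene of the 3 lists passed the adjusted tests.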

How the data were processed

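The authors deposited 1 peak list per library, so no list pools samples. The submitters' processing notes name MACS2 2.1.4, FastQC and the genome build hg38. For the aligner, the filters and the control of peak calling, no name is given in the sources used here. The lists have 5 columns, the last of them a score per peak, the authors' own deposited value of unnamed scale. It was at least 5.00 everywhere and served only for ranks and thresholds inside a list. Without reads the depth is unknown, and counting error has no interval here.

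The 433307 peaks were merged into regions at 1 bp overlap, with a region called in a library that had a peak there, and its percentile is that of the highest peak in the library's list. Gene spans, strands and promoters came from RefSeq tables of GRCh38.p14. Strand was known for 26 of the 37 genes, those with a promoter entry, and exons were not assigned. Distances run from a region's centre. Coordinates are 1-based. Calls per region were tested with Fisher's exact test and regions per gene with exact permutation tests, two-sided, with Benjamini-Hochberg adjustment over the whole table and a threshold of 0.05 (python 3.11.15, scipy 1.17.1), after the scripts had been tested on simulated data. The members, role classes, gene lists and tests were chosen with earlier results of these data known.

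Named were members with shared regions (library counts for the 12 with most), the 10 shared regions of highest median percentile, up to 3 regions per side of each pair by the lower percentile of both libraries, genes whose groups do not overlap, and up to 4 genes per further list. Regions at an unadjusted p under 0.05, and library counts of ITGB4, ITGAV and ITGB6 were added after their values were seen.

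Labels number replicates 1 and 2 in each group without saying what the numbers share. Over 15 pairs of groups the correlation between replicate differences across regions lay between 0.113 and 0.290. The first library had the longer list in each group, so these correlations cannot show whether the libraries were paired. For the replicate block, pairing by number was assumed. Alternatives were a score of at least 10, lists of equal length, calls that need 50% cover, a window of 10 kb, each library left out, a replicate block and a stratified test, with the regions kept fixed.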

Additional observations from a re-analysis of the deposited data

Results flagged for a closer look

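A region inside LAMB3 (chr1:209649366-209649939), 2773 bp from the 5′ end, changed with the tag in opposite directions in 2 genotypes. It was called in both WT-FLAG libraries and in neither WT library, and in both A442M libraries and in neither A442M-FLAG library. In all, 7 libraries called it, those 4 with 1 of G444E and both of G444E-FLAG. Its percentiles lay between 1.05 and 23.7 with a median of 10.2, near the low end of each list, and with a score of at least 10 it was called in 2 libraries. The difference between the genotypes was not tested. It was 1 of 382 member regions (0.262%) with such a pattern, against 210 of 78999 regions (0.266%).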

How the results depend on the processing

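No test called a region or a gene under any alternative run, but some counts of one-sided regions turned direction. For regions per gene in A442M and G444E against WT, the lack of calls was fixed in advance. The exact permutation test there cannot go below p = 0.0556, or 0.125 with the replicate block. The replicate block, which exchanges labels only within a replicate number, also gave 0 calls in each of the 7 contrasts, with a lowest adjusted p of 0.0680 for the tag and calls, and changed no call. At an unadjusted p under 0.05 it left the member regions at 4 higher and 2 lower for the tag and at 2 for mutants against WT, and gave 3 in place of 2 for A442M.

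Counts of one-sided member regions moved with the lists. With a score of at least 10, A442M-FLAG had 15 that WT-FLAG lacked, G444E-FLAG 2 that WT-FLAG lacked and 2 that G444E lacked, and G444E 1 that G444E-FLAG lacked. Their shares were 5.43%, 0.847%, 0.93% and 0.465%, against backgrounds of 7.77%, 0.556%, 3.63% and 0.625%. With lists of equal length, WT-FLAG had 21 that WT lacked (9.81%, background 11.5%) and WT 14 in reverse (6.54%, background 9.35%). A442M-FLAG there had 11 that A442M lacked with 16 in reverse, 7 that WT-FLAG lacked and 8 that G444E-FLAG lacked, with 8 in reverse. WT had 8 that A442M lacked (4.21%, background 3.82%), and A442M 4 that G444E lacked with 12 in reverse. G444E-FLAG had 5 that WT-FLAG lacked with 4 in reverse, and 1 that G444E lacked with 4 in reverse. With equal lists 4 of the 9 pairs thus changed sides (A442M and G444E, G444E-FLAG and WT-FLAG, A442M-FLAG and A442M, G444E-FLAG and G444E), and A442M-FLAG and G444E-FLAG were level. The background shares of those 4 pairs, given above, kept their direction with equal lists. Without 1 library, A442M and G444E (18 and 22 without the second G444E library) and G444E-FLAG and WT-FLAG (22 and 20 without the second G444E-FLAG library) changed sides.

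Where peaks had to cover 50% of a region, 18 member regions (4.71%, against 3.54% of all regions) were called in every library. Per gene these fell from 7 to 2 at ITGA2, from 6 to 0 at ITGA6 (3 with a score of at least 10) and from 4 to 0 at LAMB1 and ITGB1. WT-FLAG had 73 that WT lacked (27.7%, background 22.2%) and 14 that A442M-FLAG lacked (4.28%, background 3%). There WT had 1 that G444E lacked (0.524%, background 7.02%) and G444E 6 that A442M lacked (2.64%, background 2.04%). G444E-FLAG had 1 that WT-FLAG lacked (0.364%, background 0.772%) and 9 that A442M-FLAG lacked (2.8%, background 2.03%). It had 12 that G444E lacked (4.94%, background 4.97%), with 5 in reverse (2.06%, background 0.89%). With 10 kb windows, which hold fewer regions, WT had 1 that A442M lacked (0.581%, background 1.08%) and 3 that G444E lacked (1.83%, background 6.27%). A442M had 7 that G444E lacked (3.93%, background 8.28%) and WT-FLAG 29 that WT lacked (15.4%, background 16.8%).

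Members whose tagged and untagged libraries did not overlap were 1 with a score of at least 10 (ITGB4, background 2.27%), 0 with equal lists (background 0.44%), 4 with 50% cover (ITGA6, ITGB4, ITGA9 and ITGAE, background 4.15%) and 1 with 10 kb windows (LAMA3, background 1.5%). For A442M against WT there was 1, LAMA2, with a score of at least 10 (background 0.743%) and with 50% cover (background 0.631%). Without untagged WT and A442M, chosen after seeing the data, 97 regions were called in all 8 libraries (27.1%, against 23.1% of all regions) and 4 genes did not overlap (ITGA6, ITGB4, LAMA3 and LAMB4, background 7.77%).

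Leaving out each library in turn, the shared regions ranged from 61 to 71, members without overlap from 2 to 4 for the tag (4 without the second G444E-FLAG library) and from 0 to 2 for A442M. One-sided counts, for the first group and then the second, ranged from 25 to 62 and 2 to 16 for A442M and WT, from 24 to 53 and 6 to 26 for G444E and WT, and from 11 to 43 and 3 to 22 for A442M and G444E. They ranged from 23 to 56 and 6 to 30 for A442M-FLAG and WT-FLAG, from 0 to 22 and 7 to 27 for G444E-FLAG and WT-FLAG, and from 25 to 63 and 4 to 36 for A442M-FLAG and G444E-FLAG. For the tag they ranged from 44 to 82 and 5 to 18 in WT, from 33 to 77 and 15 to 34 in A442M, and from 4 to 46 and 3 to 13 in G444E. A group left with 1 library lists more one-sided regions by construction; the cause of the other shifts was not tested.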
